A study of Rattus norvegicus with 26 samples.

Results

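The genes examined here were 10 genes of iron handling and ferroptosis, chosen by name from the 17910 gene IDs measured in the dentate gyrus (DG), the part of the hippocampus with the granule cells. They comprised the iron uptake genes Tfrc and Slc11a2, the ferritin genes Fth1 and Ftl1, the iron exporter gene Slc40a1, the iron regulatory protein genes Aco1 and Ireb2, the haem breakdown gene Hmox1, and Slc7a11 and Gpx4, which act against lipid peroxidation. The samples were 26 male rats of the F344 strain, 6 months old when treatment began, with 1 poly(A) RNA library from 1 hemisphere of each rat. The Veh group (n = 10) received vehicle by oral gavage on 5 consecutive days every other week and belonged to another, ongoing study, on aging of the brain. Study of origin and drug therefore cannot be told apart in the comparisons with Veh. The Dox group (n = 8) received doxorubicin (Dox), an anthracycline used in chemotherapy, at 2 mg/kg by intraperitoneal injection once a week for 4 weeks. The Dox + ABT group (n = 8) received the same doses of Dox and also ABT-263 (navitoclax), a senolytic that blocks Bcl-2 and related proteins, by gavage at 12 mg/kg on 5 consecutive days every other week. No group received ABT-263 alone. In the study all rats went through behavioural tests, which began 2 weeks after Dox dosing had ended. These were water maze tasks and an avoidance task with a mild electric shock. The day on which tissue for RNA was taken is not given in the sources used here. The levels are therefore not read as responses during dosing, and effects of testing on them were not tested. Whether the Dox rats were also given vehicle by gavage, or the Veh rats an injection, is not given in the sources used here, and if they were not, drug and procedure cannot be told apart in the differences between Dox and Veh.

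Cells take up iron bound to transferrin through the transferrin receptor, reduce it in the endosome, pass it to the cytosol through divalent metal transporters, store it in ferritin and export it through ferroportin. When iron is scarce, the iron regulatory proteins bind the ferritin and transferrin receptor mRNAs, which slows ferritin translation and stabilizes the receptor mRNA, so that much of this control does not appear as a change in ferritin mRNA. Ferroptosis is a form of cell death driven by iron-dependent peroxidation of membrane lipids. Cells resist it by importing cystine for glutathione synthesis and by using glutathione to repair lipid peroxides. Doxorubicin binds iron, and the comparisons below ask whether the mRNAs of these genes differed between rats given Dox, rats given Dox with ABT-263 and vehicle rats.

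The promoter of Tfrc is shown because Tfrc alone of the 10 genes passed the threshold used below between Dox + ABT and Veh, though not in every fit. The hypoxia response element is a known route of control of its transcription and has a core of 5 bases that can be searched. The stretch of 250 bases before the RefSeq start of Tfrc lies at chr11:81690319-81690568 on the minus strand of the GRCr8 assembly, printed 5′ to 3′ on the strand of the gene. The 1 match to the core, 31 bases before the start, is in capitals.
Tfrc: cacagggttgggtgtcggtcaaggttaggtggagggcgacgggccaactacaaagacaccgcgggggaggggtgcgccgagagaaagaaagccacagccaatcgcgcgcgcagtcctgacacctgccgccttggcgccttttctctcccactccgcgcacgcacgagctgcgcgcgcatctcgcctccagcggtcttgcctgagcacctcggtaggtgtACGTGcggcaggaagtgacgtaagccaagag
RefSeq windows were matched by symbol for 7 of the 10 genes, and Fth1, Ftl1 and Hmox1 had none. The core ACGTG, searched on both strands from 250 bases before to 50 after the start, was found in the windows of 1 of the 7 genes, Tfrc, and in 19.3% of the 33469 windows of all genes. The core of the antioxidant response element, TGACNNNGC on either strand, was found for 0 of the 7 genes and in 12.1% of all windows. The letters describe the window and do not show that a factor bound there.

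The values were normalized counts, scaled by the authors so that libraries can be compared, and the rows of a gene were summed. Since they are not scaled for transcript length, levels were compared between groups and not between genes. Estimated reads per library ran from 10166200 to 24327900. Of the granule cell markers, Prox1 stood at a mean of 2467 normalized counts in Veh and C1ql2 at 7174, whereas Lct was near 0, at 0.97. Libraries also differed within groups, along a first principal component, with 28.4% of the within-group variance, that set 16 libraries of a first kind (4 Veh, 5 Dox, 7 Dox + ABT) apart from 10 of a second kind (6 Veh, 3 Dox, 1 Dox + ABT). Ribosomal protein genes accounted for 0.573% to 1.09% of a library in the first kind and 1.16% to 1.90% in the second. The split was found from the values, so levels of the kinds are compared without a test. Taking the split from within-group variation lowers the spread left within kinds. The p-values within a kind, with the kind as a covariate and for the interaction of group and kind are therefore descriptive only. No label names the split, and it moved with the groups, so called differences were also fitted with the kind as a covariate and within the first kind. The 2 groups with Dox were compared with the same Veh rats, so the comparisons are not independent of each other. In whole tissue, fewer cells of a type and less RNA per cell cannot be told apart.

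Differences were tested on log2(normalized count + 1) with limma over 15595 genes and were called at p under 0.01 without adjustment, the threshold of the study. By this rule 1 of the 10 genes, Slc7a11, differed between Dox and Veh, where 2.87% of all tested genes were called. Between Dox + ABT and Veh 1 of 10, Tfrc, was called, where 7.84% of all genes were, and between Dox and Dox + ABT 1 of 10, again Slc7a11, where 4.03% were. In the direction of each of these calls, the shares of all genes were 1.85%, 3.89% and 1.71%. A single call among 10 genes is not read as a property of the list. The calls were 1, 0 and 1 of 10 with the kind as a covariate, where 2.7%, 1.37% and 4.76% of all genes were called. After Benjamini-Hochberg adjustment 0 of the 10 had an adjusted p under 0.05 in limma in any of the 3 comparisons, a threshold that 0.0192% of all genes passed between Dox and Veh and 0% in the other two. At an unadjusted p under 0.05 there were 1, 3 and 1 of 10, where 10.2%, 22.5% and 12.7% of all genes passed, and at p under 0.01 by the exact permutation test 1, 1 and 0. The median log2 difference of the 10 genes was -0.10 for Dox minus Veh, -0.09 for Dox + ABT minus Veh and 0.04 for Dox minus Dox + ABT, beside 0.00 for all tested genes in each.

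**Figure D1:**
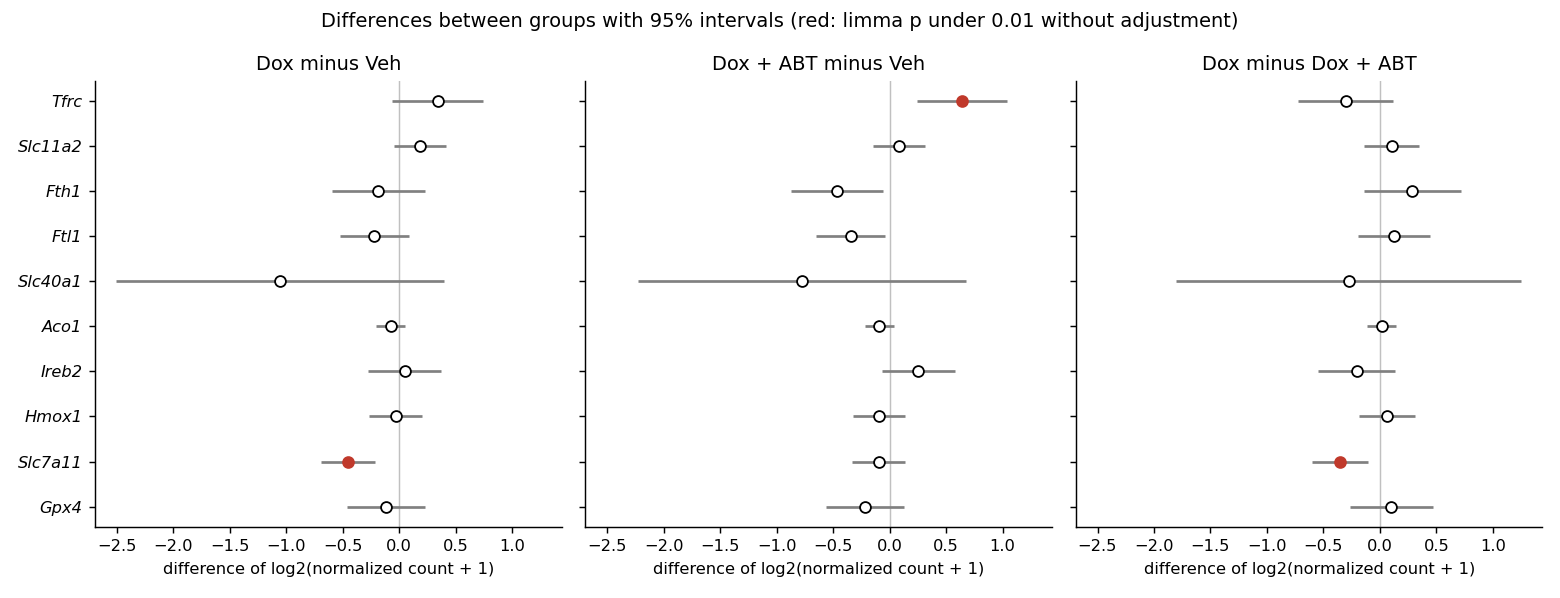
Difference of log2(normalized count + 1) for each of the 10 genes in the 3 comparisons (x axis, log2 units), with limma's 95% intervals as bars and calls at p under 0.01 without adjustment in red. Slc7a11 was lower in Dox than in Veh (-0.45) and than in Dox + ABT (-0.36), and Tfrc was higher in Dox + ABT than in Veh (0.64), while the interval of Slc40a1 is the widest of the 10 in each comparison.

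Slc7a11, which encodes the cystine and glutamate exchanger that feeds glutathione synthesis and in brain is best known from astrocytes, was lower in the Dox group. Its normalized counts ran from 818.8 to 1132 in the Veh rats, with a median of 953, from 486 to 1057 in the Dox rats, with a median of 709, and from 688 to 1085 in the Dox + ABT rats, with a median of 897. In 6 of the 8 Dox rats the level was below that of every Veh rat, and the other two, Dox rats 5 and 7, stood at 1057 and 846.8. The lowest levels were those of Dox rats 1 and 2, at 486 and 516. The mean was 961 ± 97.5 (SD, n = 10) in Veh and 718 ± 182 (SD, n = 8) in Dox, 74.8% of Veh. The difference was -0.45 on the log2 scale (SE 0.11, limma p = 0.000496, adjusted p = 0.14), and the exact permutation test, two-sided, gave p = 0.0016. With the kind as a covariate it was -0.42 (limma p = 0.000826), and without Dox rats 1 and 2 it was -0.29 (limma p = 0.00817).

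The Dox + ABT rats had a mean Slc7a11 level of 903 ± 132 (SD, n = 8), 94.0% of Veh. The Dox + ABT minus Veh difference of -0.10 did not pass the test (95% interval -0.33 to 0.14, limma p = 0.408), and within the first kind it was -0.28 (limma p = 0.0362). Dox was lower than Dox + ABT by -0.36 on the log2 scale (SE 0.12, limma p = 0.00657, adjusted p = 0.227), with 3 of 8 Dox rats below every Dox + ABT rat. This difference was -0.39 with the kind as a covariate (limma p = 0.00326) and within the first kind -0.50 (limma p = 0.000327). The call was lost without Dox rat 1, 2 or 13 or Dox + ABT rat 3, 4 or 5 (limma p from 0.0103 to 0.0212), with the groups fitted alone (limma p = 0.0178) and by the exact permutation test (p = 0.0319), and without both Dox rats 1 and 2 the difference was -0.20 (limma p = 0.0783).

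The Slc7a11 difference between Dox and Veh was not the same in both kinds of library. In the first kind the 4 Veh rats ran from 985 to 1132 and the 5 Dox rats from 486 to 759, with no overlap, a difference of -0.78 (limma p = 1.02e-05). In the second kind the 6 Veh rats ran from 818.8 to 977 and the 3 Dox rats from 719.8 to 1057, and the difference was -0.05 (limma p = 0.664). The interaction of group and kind, second minus first, was 0.72 on the log2 scale (limma p = 0.000775, adjusted p = 0.09). Because the kinds were found from these same values, the p-values of interactions are descriptive only. Of the 10 genes 2 had an interaction at p under 0.01, where 7.16% of all genes had one, and 7 at p under 0.05, where 19.4% had one. Gpx4, the glutathione peroxidase that reduces lipid peroxides in membranes, had an interaction of the opposite sign, -0.86 (limma p = 0.0088, adjusted p = 0.133). Its Dox minus Veh difference was 0.33 in the first kind (limma p = 0.136) and -0.53 in the second (limma p = 0.0148). In the first kind Dox rats 1 and 2 stood at 3908 and 4448 and Dox rats 9, 10 and 13 at 2766 to 3585, beside a Veh mean of 2902. Pooled over kinds Gpx4 ran from 1848 to 5050.0 in Veh, 2053 to 4448 in Dox and 2388 to 4220.3 in Dox + ABT. The groups overlapped widely, and its differences from Veh of -0.12 in Dox and -0.22 in Dox + ABT did not pass the test (limma p = 0.503 and 0.214), although that in Dox + ABT was -0.43 and called (limma p = 0.00287) with limma's arrayWeights, which give less weight to libraries that vary more.

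**Figure D2:**
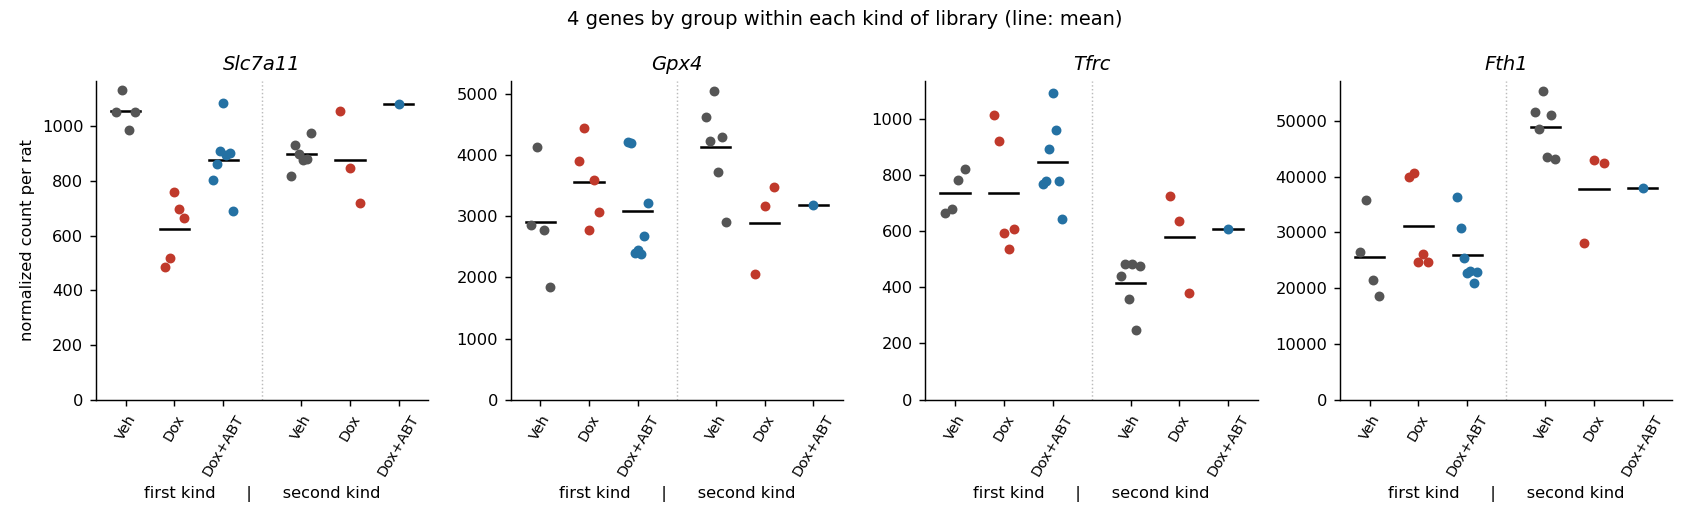
Normalized counts per rat (y axis) of Slc7a11, Gpx4, Tfrc and Fth1 by group in libraries of the first kind and of the second, with the mean as a line. For Slc7a11 the Dox rats of the first kind (486 to 759) lie below the Veh rats (985 to 1132), and for Tfrc and Fth1 the Veh rats of the second kind lie apart from those of the first.

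Some astrocyte markers were lower in Dox together with Slc7a11. Of 8 astrocyte markers 3 were called lower in Dox than in Veh, where 1.85% of all genes were, namely Gfap by -0.75, Aqp4 by -0.43 and Aldh1l1 by -0.43 on the log2 scale, and none was called higher. The summed level of the list ran from 53738 to 79022 in Veh, 46432 to 57437 in Dox and 48979 to 71972 in Dox + ABT, and 0 of the 8 markers were at 0 in all libraries. Of the other 5, Slc1a2 and Aldoc differed by -0.08 and -0.13, while 3 differed in the other direction, Fgfr3 by 0.39 (limma p = 0.0131), Gja1 by 0.06 (limma p = 0.664) and Slc1a3 by 0.03 (limma p = 0.836). Within the first kind Fgfr3 was higher in Dox by 0.41 (limma p = 0.00714). Of 9 microglia and macrophage markers 4 were called lower in Dox, where 1.85% of all genes were, and 0 higher in limma, with 2 others, C1qa (0.18) and C1qb (0.12), on the higher side without passing the test. The sums of these markers ran from 3968 to 6899 in Veh and 3743 to 5611 in Dox. Apart from Fgfr3, the astrocyte and microglia differences are given here without the kind of library in the fit. The part of these cell types in the Slc7a11 difference was not tested.

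Tfrc, the transferrin receptor that carries transferrin-bound iron into cells, was higher in Dox + ABT than in Veh. Its normalized counts ran from 246 to 819 in the Veh rats, with a median of 482, from 380.4 to 1014 in Dox, with a median of 620.5, and from 608 to 1091 in Dox + ABT, with a median of 777. All 8 Dox + ABT rats were above the Veh median and 3 were above every Veh rat. The mean was 815 ± 161 (SD, n = 8) against 543 ± 186 (SD, n = 10), 150.0% of Veh. The log2 difference was 0.64 (SE 0.19, limma p = 0.00258, adjusted p = 0.109). The exact permutation test, two-sided, gave p = 0.00658.

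The Tfrc level also differed between the kinds of library, and the call did not hold once the kind was in the fit. The second kind had less Tfrc than the first by -0.60 on the log2 scale, and only 1 of 8 Dox + ABT rats but 6 of 10 Veh rats were of the second kind. With the kind as a covariate the Dox + ABT minus Veh difference was 0.36 (limma p = 0.0387). Within the first kind, 7 Dox + ABT rats with a mean of 844 and 4 Veh rats with a mean of 736 differed by 0.19 (limma p = 0.268). Dox rats 1 and 2 had the highest Tfrc of the Dox group, at 1014 and 918.7, and the Dox minus Veh difference of 0.34 (95% interval -0.06 to 0.74, limma p = 0.0914) was 0.15 without them. Dox and Dox + ABT differed by -0.30 (95% interval -0.72 to 0.12, limma p = 0.15). This difference was -0.49 without Dox rats 1 and 2 (limma p = 0.025), -0.46 and called with libraries weighted by arrayWeights (limma p = 0.00744), and -0.00021 with the replicate number as a block (limma p = 0.999).

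Slc11a2, the divalent metal transporter that moves iron out of endosomes, was within a narrow range in most rats. It ran from 857 to 1175 in Veh, with a median of 1029, and from 1009 to 1200.2 in Dox + ABT, with a median of 1122. In Dox, 6 rats lay between 874 and 1159, while Dox rats 1 and 2 stood apart at 1734 and 1892. The Dox mean was 1230.0 ± 378 (SD, n = 8) beside 1044 ± 88.2 (SD, n = 10) in Veh. The difference of 0.19 did not pass the test (limma p = 0.106). Without Dox rats 1 and 2 the difference was -0.02. Slc11a2 was listed in 4 rows, of which the first held 77.8% and the second 19.0% of the gene's normalized counts. Between Dox and Veh the first row differed by 0.31 (limma p = 0.0412) and the second by -0.27 (limma p = 0.0787), and between Dox + ABT and Veh by 0.20 (limma p = 0.171) and -0.36 (limma p = 0.0204).

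**Figure D3:**
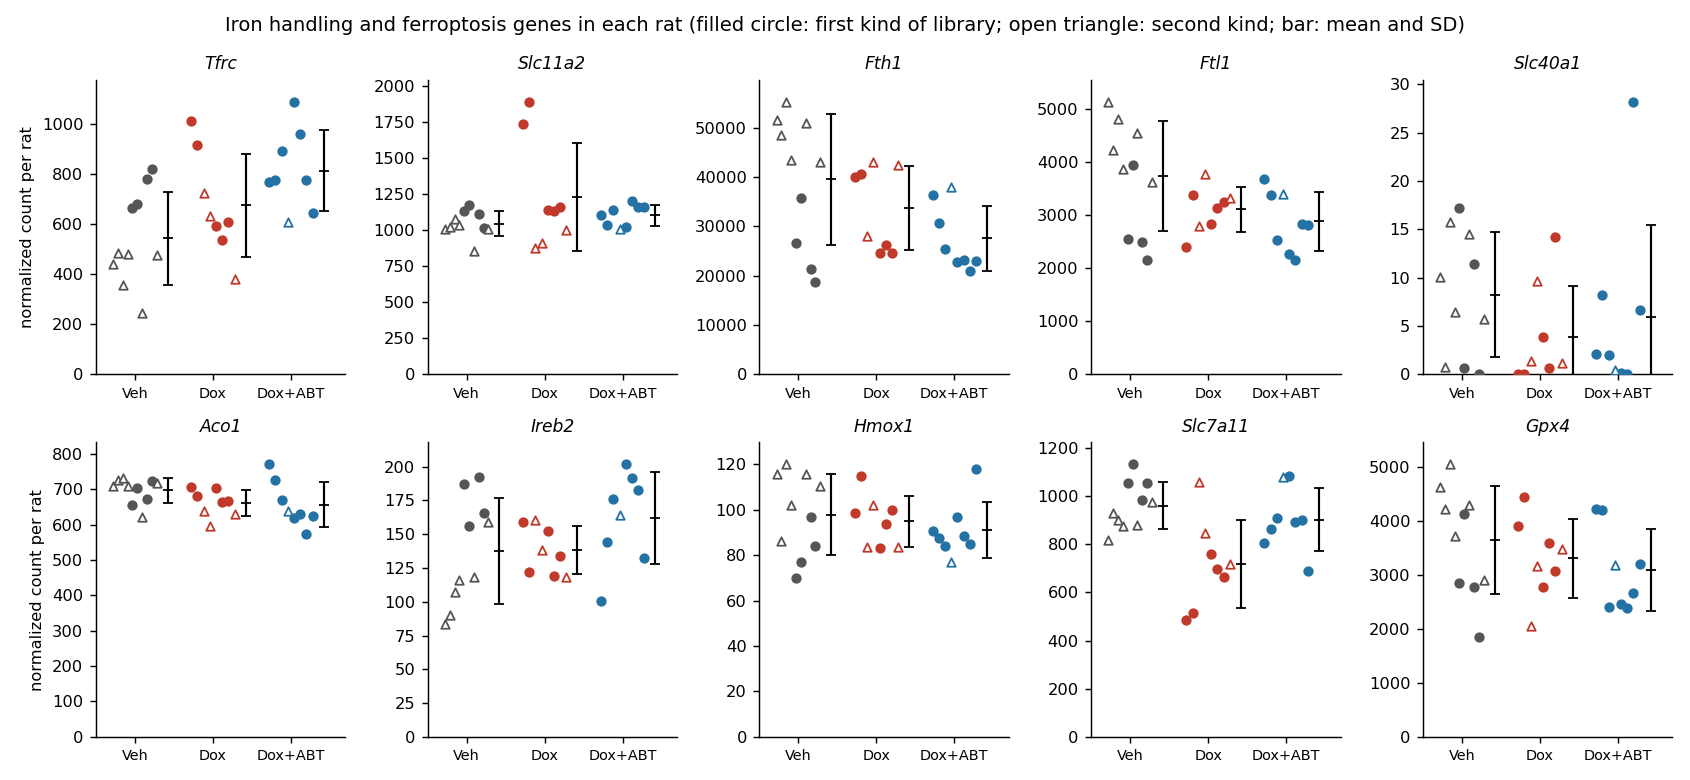
Normalized counts per rat (y axis, from 0) of the 10 genes in the Veh (n = 10), Dox (n = 8) and Dox + ABT (n = 8) groups, with circles for the first kind of library, triangles for the second, and bars for mean and SD. In Slc11a2 Dox rats 1 and 2 (1734 and 1892) lie above every other rat, in Slc7a11 they lie below every other rat (486 and 516), and in Slc40a1 1 Dox + ABT rat lies at 28.2.

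The ferritin genes had lower means in the treated groups, by amounts that did not pass the test over all rats. Fth1, the heavy subunit with ferroxidase activity, ran from 18631 to 55326 in Veh, with a median of 43342, from 24661 to 43048 in Dox, with a median of 33989, and from 20969 to 38008 in Dox + ABT, with a median of 24256. Ftl1, the light subunit, had means of 3739 ± 1035 (SD, n = 10), 3114 ± 424 (SD, n = 8) and 2884 ± 561 (SD, n = 8). For both genes all 8 Dox rats and all 8 Dox + ABT rats were below the Veh median, but the groups overlapped. The 4 Veh rats of the first kind of library had the lowest Fth1 levels of their group, from 18631 to 35730.

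The Dox minus Veh differences were -0.18 for Fth1 (95% interval -0.59 to 0.23, limma p = 0.367) and -0.22 for Ftl1 (-0.52 to 0.09, limma p = 0.152), and the Dox + ABT minus Veh differences -0.47 (-0.87 to -0.06, limma p = 0.0263) and -0.34 (-0.65 to -0.04, limma p = 0.0291). Fth1 was higher in the second kind of library by 0.66 and Ftl1 by 0.42. The Dox minus Veh difference had opposite signs in the 2 kinds, for Fth1 from 0.29 in the first (limma p = 0.165) to -0.39 in the second (limma p = 0.0457) and for Ftl1 from 0.14 (limma p = 0.417) to -0.41, which was called (limma p = 0.00876). In the first kind Fth1 stood at 39948 and 40646 in Dox rats 1 and 2. Dox rats 9, 10 and 13 were at 24661 to 26114, beside a Veh mean of 25574, so the higher side there rests on rats 1 and 2. With the kind as a covariate the Dox + ABT minus Veh differences were -0.16 and -0.15, and within the first kind 0.05 and 0.03. Without Veh rat 10 the Fth1 difference between Dox + ABT and Veh was -0.56 (limma p = 0.00751), and without Veh rat 11 it was -0.58 (limma p = 0.00382) with -0.43 for Ftl1 (limma p = 0.00432). Both were called for Dox + ABT against Veh without both Veh rats with the fewest reads (-0.69, limma p = 0.000309, and -0.50, limma p = 0.000571) and with arrayWeights (-0.74, limma p = 3.54e-05, and -0.56, limma p = 5.73e-05), and Fth1 also with the replicate number as a block (-0.52, limma p = 0.00273). For Dox against Veh, arrayWeights called both (-0.55, limma p = 0.00241, and -0.36, limma p = 0.00892), and leaving out those Veh rats called Ftl1 (-0.38, limma p = 0.00653). Ferritin genes have many processed copies, with which reads may be shared, so these values are uncertain to that extent. Summed oligodendrocyte markers, cells known to be rich in ferritin, ran from 42939 to 120337 in Veh, 46711 to 71907 in Dox and 50397 to 106190 in Dox + ABT. Of 8 such markers, 2 were called lower in Dox than in Veh, where 1.85% of all genes were, and 1, Opalin, was called higher in Dox + ABT than in Veh (0.63, limma p = 0.00224), where 3.89% were. Their part in the ferritin values was not tested.

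Slc40a1, which encodes ferroportin, the iron exporter, had low values. Its normalized counts ran from close to 0 to 17.2 in Veh, to 14.2 in Dox and to 28.2 in Dox + ABT, with medians of 8.22, 1.26 and 2.03. The groups overlapped, with 1 Dox + ABT rat above every Veh rat, and the difference of -1.05 between Dox and Veh had a 95% interval from -2.50 to 0.40 (limma p = 0.148). The other fits of this difference gave -2.15 to -0.53 (limma p from 0.0276 to 0.498), none of them a call. Its values rest on few reads. Some were far below 1 read, such as 0.00168 in Dox rat 2, where 1 read was worth 1.17. Such values are not whole reads, and how reads were shared out was not tested.

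The iron regulatory protein genes did not pass the test in any comparison over all rats with equal weight. Aco1, whose product is the cytosolic aconitase and iron regulatory protein 1, was the least variable of the 10 genes in Veh, at 697 ± 35.7 (SD, n = 10), while Dox had 662 ± 37.8 (SD, n = 8) and Dox + ABT 657 ± 63.6 (SD, n = 8). All 8 Dox rats were at or below 707, under the Veh median of 709, but the difference of -0.08 had an interval from -0.20 to 0.05 (limma p = 0.228). Ireb2, which encodes iron regulatory protein 2, had a mean of 138 ± 39.4 in Veh, while Dox had 138 ± 17.7 and Dox + ABT 162 ± 34.1, and the largest of its 3 differences was 0.26 for Dox + ABT minus Veh (limma p = 0.114). With libraries weighted by arrayWeights it was 0.50 and called (limma p = 0.00105), and within the first kind it was -0.15 (limma p = 0.376). Its larger row, with 74.8% of the normalized counts, differed by -0.14 in that comparison (limma p = 0.479), so the sign of the Ireb2 difference rests on the smaller row.

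Hmox1, the inducible haem oxygenase that releases iron from haem and a common sign of oxidative stress, stayed within 70.1 to 120.0 normalized counts in all 26 rats. The mean was 97.8 ± 17.7 in Veh, while Dox had 94.9 ± 11.2 and Dox + ABT 90.9 ± 12.4. The groups overlapped fully, and the Dox minus Veh difference of -0.03 had a 95% interval from -0.26 to 0.20 (limma p = 0.801), but it was 0.26 in the first kind (limma p = 0.0973) and -0.27 in the second (limma p = 0.124), with an interaction of -0.52 (limma p = 0.0245).

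Among the 10 genes, deviations from the means of group and kind of library went together for Fth1 and Gpx4 (Pearson r = 0.89 over 26 rats) and for Ftl1 and Gpx4 (r = 0.85). The most negative pairs were Ireb2 with Ftl1 (r = -0.76) and with Gpx4 (r = -0.73). Slc7a11 deviated against Slc11a2 (r = -0.69), Hmox1 (r = -0.67), Gpx4 (r = -0.66) and Fth1 (r = -0.64). Without Dox rats 1 and 2, which had the lowest Slc7a11 and the highest Slc11a2, these were -0.38, -0.63, -0.58 and -0.42 over 24 rats, and Slc7a11 with Tfrc was 0.70 in place of 0.27. The genes most alike to Slc7a11 by this measure, of 12128 with a mean of at least 50, were Ipo7 (r = 0.89), LOC100910754 (0.87) and B3galt2 (0.87), and those most alike to Tfrc were Arglu1 (0.92), Esco1 (0.90) and Zfp810 (0.89). Without those 2 rats these 6 values ran from 0.77 to 0.91. These are descriptions over rats that share their library, depth and normalization with every gene.

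The other genes of the same pathways were taken from a list of 87 by role, of which 83 were in the file and 76 had a mean of at least 5 normalized counts. Of the 76, 2 were called between Dox and Veh (1 higher, 1 lower), 8 between Dox + ABT and Veh (2 higher, 6 lower) and 1 between Dox and Dox + ABT (lower in Dox), while of all genes 1.02% were higher and 1.85% lower, 3.89% higher and 3.95% lower, and 2.32% higher and 1.71% lower. None had an adjusted p under 0.05 in limma, and at an unadjusted p under 0.05 there were 11, 19 and 11, where 10.2%, 22.5% and 12.7% of all genes passed. The median log2 difference of the 76 was 0.01, 0.01 and 0.00.

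**Figure D4:**
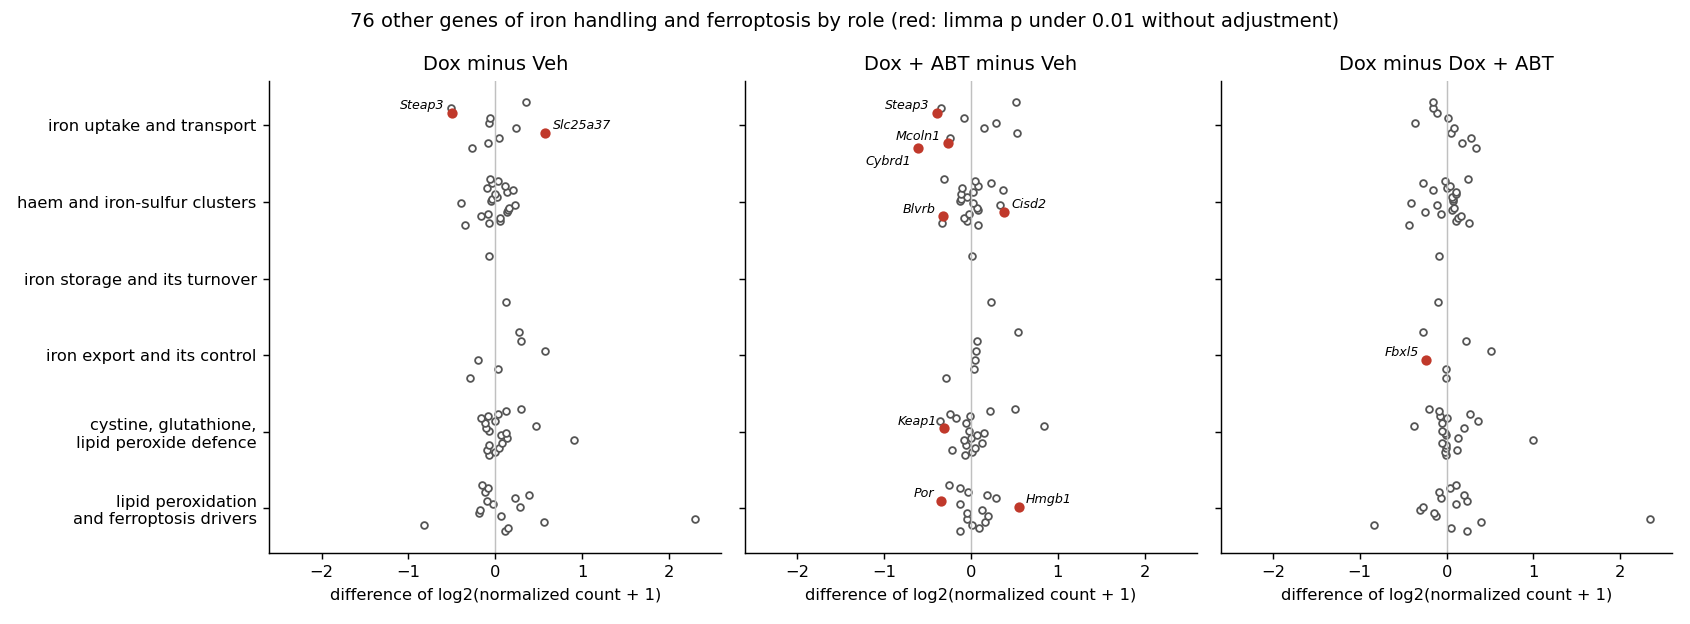
Log2 differences (x axis) of the 76 other genes by role in the 3 comparisons, with calls at p under 0.01 without adjustment filled and named. Steap3 lies on the lower side in both comparisons with Veh (-0.50 and -0.39), and 6 of the 8 calls between Dox + ABT and Veh are on the lower side.

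Steap3, the endosomal ferrireductase that reduces iron taken up with transferrin, was lower in both treated groups. It ran from 297.5 to 442 in Veh, with a median of 359, from 159 to 342 in Dox, with a median of 272, and from 235 to 308 in Dox + ABT, with a median of 288. All 16 treated rats were below the Veh median, and 5 of 8 in each group were below every Veh rat. The differences from Veh were -0.50 in Dox (SE 0.12, limma p = 0.00024, adjusted p = 0.114) and -0.39 in Dox + ABT (SE 0.12, limma p = 0.00268, adjusted p = 0.109). They were -0.44 (limma p = 0.000341) and -0.27 (limma p = 0.0272) with the kind as a covariate. The Dox difference was -0.40 in the first kind (limma p = 0.0239) and -0.48 in the second (limma p = 0.00377), and without Dox rats 1 and 2 it was -0.33 (limma p = 0.00289). The Dox + ABT difference was -0.21 in the first kind and did not pass the test there (limma p = 0.177).

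Slc25a37, or mitoferrin 1, which imports iron into mitochondria and is best known from red cell precursors, was higher in Dox than in Veh. It ran from 13.5 to 46.2 in Veh, from 31.8 to 72.6 in Dox and from 30.7 to 54.2 in Dox + ABT. The means were 32.1, 46.4 and 44.3, so the Dox + ABT mean was also above that of Veh. The Veh median lay below all 8 Dox rats, and the Dox minus Veh difference was 0.58 (SE 0.20, limma p = 0.00752, adjusted p = 0.317). It was 0.03 within the first kind of library and 0.97 within the second (limma p = 0.0114), and with the kind as a covariate 0.49 (limma p = 0.0154). The call was lost without Veh rat 1, 2, 4, 9 or 12 or Dox rat 1, 2, 5, 7 or 13 (limma p from 0.011 to 0.0239). It was also lost with the 2 groups fitted alone (limma p = 0.0171) and without both Dox rats 1 and 2 (0.56, limma p = 0.0189). Summed red cell markers ran from 2331 to 26011 in Veh, 3610.2 to 129837 in Dox and 3175 to 11582 in Dox + ABT. Between Dox and Veh the 5 red cell markers were on the higher side in Dox. Over all rats 0 of 5 were called in limma, where 2.87% of all genes were, and 2 were at p under 0.05, where 10.2% were. With the kind in the fit 5 of 5 were called, where 2.7% of all genes were, at differences from 1.27 for Hbb (limma p = 0.00498) to 2.53 for Slc4a1 (limma p = 0.00264), and their part in the Slc25a37 difference was not tested.

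Alox15, a lipoxygenase that oxidizes membrane fatty acids and is abundant in reticulocytes, had the smallest p of the lipid peroxidation genes between Dox and Veh, and whether it passed the test depended on the fit. The 10 Veh rats ran from 7.44 to 46.1 and the 8 Dox + ABT rats from 15.3 to 48.0. In Dox, rats 1 and 2 stood at 232 and 187 and rats 5 and 7 at 3158 and 5706, whereas the other 4 Dox rats ran from 10.7 to 36.4, within the range of Veh. The difference of 2.30 on the log2 scale did not pass the test (SE 0.84, limma p = 0.0105). It was called with the kind as a covariate (2.76, limma p = 0.000945), within the second kind (4.61, limma p = 0.00153), with a pseudocount of 5 (2.23, limma p = 0.00924), with the replicate number as a block (2.67, limma p = 0.000675) and when Dox rat 9, 10, 13 or 14 was left out (limma p from 0.00176 to 0.00615). It was 1.21 within the first kind (limma p = 0.101), 0.57 with libraries weighted by arrayWeights (limma p = 0.39), 1.66 without Dox rat 5 (limma p = 0.0385) and 1.54 without Dox rat 7 (limma p = 0.0379). The same 4 Dox rats had the highest summed red cell markers of the group, at 25751, 29133, 92650.1 and 129837 beside 3610.2 to 14067 in the other 4, and in the 10 Veh rats the sum reached 26011 with Alox15 at most at 46.1. The part of red cells in the Alox15 values was not tested.

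Gch1, which makes the lipid antioxidant tetrahydrobiopterin, was at 19.9, 30.5, 16.1 and 30.7 in these 4 Dox rats and at 1.07 to 10.3 in the other 4. In Veh it ran from 1.10 to 8.15, and the Dox minus Veh difference of 0.91 did not pass the test (SE 0.47, limma p = 0.0661). Leaving out 1 rat at a time gave 0.68 to 1.24 (limma p from 0.00883 to 0.165), with a call only without Dox rat 13, and the other fits 0.26 to 1.46 (limma p from 0.0199 to 0.586). Gch1 levels were low, so single values rest on few reads.

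**Figure D5:**
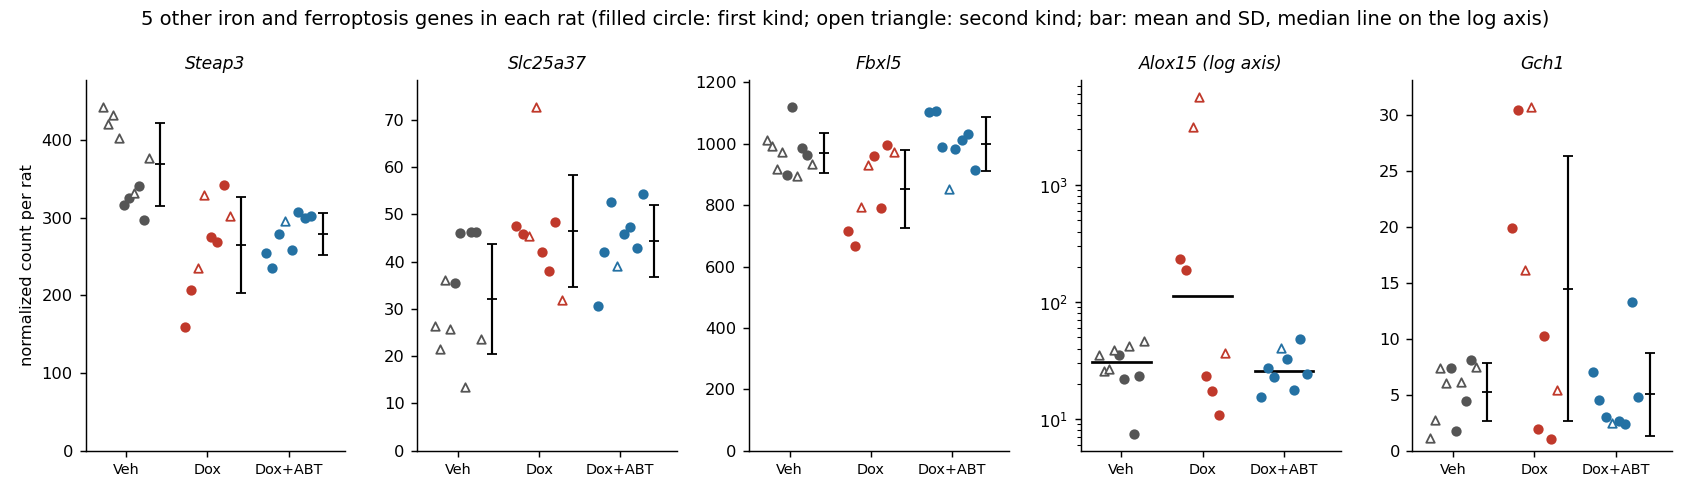
Normalized counts per rat (y axis, logarithmic for Alox15) of Steap3, Slc25a37, Fbxl5, Alox15 and Gch1 in the 3 groups, with circles for first-kind and triangles for second-kind libraries and bars for mean and SD, or a median line for Alox15. In Alox15, 4 Dox rats (187 to 5706) lie above all other rats, which stay at or below 48.0.

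Fbxl5, the iron-sensing ubiquitin ligase subunit that marks iron regulatory protein 2 for degradation, was lower in Dox (854 ± 127, SD, n = 8) than in Dox + ABT (999 ± 87.2, SD, n = 8). The difference was -0.24 on the log2 scale (SE 0.08, limma p = 0.00743, adjusted p = 0.233). All 8 Dox rats were below the Dox + ABT median. It was -0.23 with the kind as a covariate (limma p = 0.00861) and -0.32 within the first kind (limma p = 0.00374). The call was lost without Dox rat 1, 2, 5 or 10 or Dox + ABT rat 1, 2, 3, 5, 6 or 11 (limma p from 0.0102 to 0.0233), and without both Dox rats 1 and 2 the difference was -0.14 (limma p = 0.075). It was also lost in the largest row of the gene (-0.19, limma p = 0.0896), with the 2 groups fitted alone (limma p = 0.0195) and with libraries weighted by arrayWeights (-0.19, limma p = 0.011). The Dox minus Veh difference of -0.19 did not pass the test (limma p = 0.0181), but was called without Dox rat 13 (limma p = 0.0073) or 14 (limma p = 0.00886) and with the replicate number as a block (-0.34, limma p = 0.00418). Apart from leaving out 1 rat at a time, the other fits reached down to a difference of -0.09, with limma p up to 0.365.

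In Dox + ABT against Veh, the other genes called lower than in Veh were Por (-0.34, limma p = 0.00113), the flavoprotein that passes electrons to cytochrome P450 enzymes, Keap1 (-0.31, limma p = 0.00391), the repressor of the antioxidant factor Nrf2, Blvrb (-0.32, limma p = 0.00625), a biliverdin reductase, Cybrd1 (-0.61, limma p = 0.00546), a ferric reductase, and Mcoln1 (-0.26, limma p = 0.00757), a lysosomal channel that releases iron. Those called higher were Hmgb1 (0.55, limma p = 0.0018), a chromatin protein released by dying cells, and Cisd2 (0.38, limma p = 0.00317), an iron-sulfur protein. All 8 Dox + ABT rats were on one side of the Veh median for Por, Keap1, Cybrd1, Hmgb1 and Cisd2. Once the kind of library entered the fit, 0 of the 76 genes were called in this comparison in limma, where 1.37% of all genes were, the largest p among these 7 genes being 0.0653. Within the first kind the differences were -0.10 for Por, -0.07 for Keap1, -0.11 for Blvrb, -0.43 for Cybrd1, -0.03 for Mcoln1, 0.08 for Hmgb1 and 0.00 for Cisd2, none of which passed the test (limma p from 0.131 to 0.968). Single rats also decided calls: that of Keap1 was lost without Dox + ABT rat 5, 6 or 11, that of Cybrd1 without Veh rat 2 or 12 or Dox + ABT rat 1, 2 or 5, that of Blvrb without any of 5 Veh and 4 Dox + ABT rats and that of Mcoln1 without any of 5 Veh and 5 Dox + ABT rats (limma p from 0.0103 to 0.0228 over all of these). With the 2 groups fitted alone the calls of Blvrb (limma p = 0.0142) and Mcoln1 (limma p = 0.0149) were lost. That of Mcoln1 was also lost with quantile normalization (limma p = 0.0112) and with the replicate number as a block (limma p = 0.0114).

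Of the roles, iron uptake and transport held 2 calls among 10 tested genes between Dox and Veh, and the other roles held none, where 2.87% of all genes were called. The 20 genes of cystine, glutathione and the lipid peroxide defence, among which stand the Slc7a11 partner Slc3a2, the glutathione synthesis genes and Nfe2l2, held 0 calls between Dox and Veh in limma's test and none at an unadjusted p under 0.05, which 10.2% of all genes passed, so that few or no calls among 20 genes are not read as a property of the list. Ncoa4, the receptor that carries ferritin to lysosomes, was at 1051 ± 163 (SD, n = 10) in Veh and 1142 ± 143 (SD, n = 8) in Dox. The difference was 0.12 (limma p = 0.182).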

How the data were processed

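One library per rat was measured for 26 rats. The deposited signal is normalized: reads from an Ion Proton were mapped by the authors in Partek Flow (STAR 2.5.3a, rn6) and their counts scaled by Median Ratio. Columns were mapped to rats by the sample titles, and 0 columns were left unmapped. The 24012 rows were summed to 17910 gene IDs. Raw counts could not be recovered, so in place of a count test differences were tested with limma 3.58.1 in R 4.3.3 (moderated test with a variance trend, two-sided) on log2(value + 1), keeping genes whose mean was 5 or more, with all 26 rats in 1 fit, and p-values were adjusted by Benjamini-Hochberg. A fold change on this scale understates that of low genes, and p-values rest on rats as replicates. The kinds of library were found by 2-means clustering of the first principal component of within-group deviations in genes whose mean was 20 or more. Exact permutation tests used all 43758 or 12870 splits. The fit was tested on simulated data. The members and lists were chosen with earlier results of these data known. Named were all 10 genes, the other list genes called in any comparison, the smallest p of each role between Dox and Veh, and the 3 genes most alike to each called gene, except 1 gene that is not reported here. The marker genes named and Dox rats 1 and 2 were singled out after their values were seen. Alternatives were pseudocounts of 0.5 and 5, no filter or a mean of at least 20, other variance models, fits of 2 groups, trimmed-mean (TMM) and quantile rescaling, the replicate number as a block, the kind of library, the largest row, and leaving out each rat. Leaving out Dox rats 1 and 2 (in fits and correlations) or both Veh rats with the fewest reads, the interaction with the kind of library and the second row of a gene were added after seeing the data. RefSeq promoters are of GRCr8.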

Additional observations from a re-analysis of the deposited data

Results flagged for a closer look

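A sample far from the others was looked for in 69 groups of 23 genes, and 4 were found, where chance flags about 1 in 20 groups. Slc40a1 stood at 28.2 normalized counts in Dox + ABT rat 11, beside 8.23 in the nearest rat of the group, and Gch1 in the same rat at 13.3 beside 7.07. Ncoa4 was at 840 in Dox rat 14, beside 1107 in the nearest rat, and Slc25a37 at 72.6 in Dox rat 7, beside 48.3.

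The interaction of the Dox minus Veh difference with the kind of library was at p under 0.01 in limma for 2 of the 10 genes, where 7.16% of all genes had such an interaction. The second minus first kind difference was 0.72 on the log2 scale for Slc7a11 (limma p = 0.000775) and -0.86 for Gpx4 (limma p = 0.0088), with adjusted p of 0.09 and 0.133 over all tested genes. The kinds were found from these same values, so these p-values are descriptive only.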

How the results depend on the processing

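Counts are given in the order Dox against Veh, Dox + ABT against Veh, Dox against Dox + ABT, and the cause of a change was not tested. Weighting libraries by limma's arrayWeights called 3, 5 and 2 of the 10 genes, 14, 25 and 6 of the 76 other genes, and 3150, 5297 and 1612 of all genes, against 448, 1222 and 629. Leaving out both Veh rats with the fewest reads called 2 and 3 of the 10 in the comparisons with Veh, 18 of the 76 for Dox + ABT against Veh, 2 of the 76 for Dox against Dox + ABT, and 1322, 3046 and 705 of all genes. Leaving out Dox rats 1 and 2 called 0 of the 10 and 463 of all genes for Dox against Dox + ABT, and 1 of the 76 and 181 of all genes for Dox against Veh.

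With the kind as a covariate 0 of the 10, 0 of the 76 and 214 of all genes were called for Dox + ABT against Veh, and 2 of the 76 and 743 of all genes for Dox against Dox + ABT. Within the first kind these were 0, 0 and 172, with 742 of all genes for Dox against Veh and, for Dox against Dox + ABT, 5 of the 76 and 1281 of all genes, and within the second kind 5 of the 76 and 556 of all genes for Dox against Veh. Fits of the groups compared alone called 1 of the 76 and 315 of all genes for Dox against Veh, and 0 of the 10, 4 of the 76 and 704 of all genes for Dox against Dox + ABT. There the exact permutation test, run on the 10 genes alone, called 0, quantile normalization 2 of the 76 and 638 of all genes, and the largest row 0 of the 76 and 593 of all genes.

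The replicate number as a block called 7 of the 76 and 765 of all genes for Dox against Veh, 2 of the 10 and 1180 of all genes for Dox + ABT against Veh, and 0 of the 10, 3 of the 76 and 403 of all genes for Dox against Dox + ABT, with Slc7a11 there at -0.40 (limma p = 0.0113). The numbers do not pair the rats: deviations of same-numbered rats correlated from -0.22 to 0.44 over the 3 comparisons, and 1 rat correlated best with its own number. Under the block Ftl1 and Gpx4 turned to -0.0066 and -0.0067 for Dox against Dox + ABT.

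Leaving out 1 rat at a time called 1 to 1, 1 to 3 and 0 to 1 of the 10, 1 to 7, 4 to 14 and 0 to 4 of the 76, and 266 to 707, 695 to 2130 and 419 to 787 of all genes. The 3 came without Veh rat 11 and 2 without Veh rat 10, the 14 without Veh rat 11 and the 4 of 76 without Dox + ABT rat 5, and the 7 without Dox rat 14. Of all genes, the 266 came without Dox rat 1, the 707 without Veh rat 11, the 2130 without Veh rat 11 and the 695 without Dox + ABT rat 5. Differences that changed sign ran from -0.022 to 0.11 for Ireb2 and -0.079 to 0.0060 for Hmox1 (Dox against Veh), and from -0.61 to 0.15 for Slc40a1 and -0.013 to 0.048 for Aco1 (Dox against Dox + ABT).

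Other changes of sign concerned values that had not passed the test, except Cisd2. Within the first kind, Dox minus Veh was -0.047 for Tfrc, 0.29 for Fth1, 0.14 for Ftl1, -0.35 for Ireb2, 0.26 for Hmox1, 0.33 for Gpx4 and -0.025 for Ncoa4, and Dox + ABT minus Veh was 0.045 for Fth1, 0.029 for Ftl1, -0.15 for Ireb2, 0.18 for Hmox1, 0.10 for Gpx4 and -0.0039 for Cisd2. Within the second, Dox minus Veh was -0.11 for Slc11a2. With the kind as a covariate Ireb2 was -0.015 (Dox minus Veh) and Slc11a2 -0.061 (Dox + ABT minus Veh). In its largest row Ireb2 was -0.13, -0.14 and 0.0096 in the 3 comparisons, and in second rows Slc11a2 was -0.27 and -0.36 against Veh and Ireb2 -0.47 (Dox minus Veh, though its mean is higher in Dox). Without Dox rats 1 and 2 Slc11a2 was -0.016 for Dox minus Veh, and for Dox minus Dox + ABT -0.10, with Slc40a1 0.25, Aco1 -0.0096 and Gpx4 -0.022. Slc40a1 for Dox minus Dox + ABT was 0.17 with arrayWeights and 0.053 with quantile normalization, where Aco1 was -0.0091.

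Single values of Slc40a1, Gch1 and other genes near 5 normalized counts rest on few reads, and for Slc40a1 some are far below 1 read.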
